A study of Homo sapiens with 12 samples.

Results

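The genes described here are the subunits, activators, inhibitor and assembly chaperones of the proteasome, 46 of the 27685 gene symbols in the table. They were chosen by symbol as genes of the proteasome, and all 46 were found and passed the filter on low counts. The set falls into 5 immune genes (PSMB8, PSMB9, PSMB10, PSME1 and PSME2) and 41 others, which are 7 alpha ring genes, 4 non-catalytic and 3 constitutive catalytic beta genes, 6 ATPases and 11 non-ATPases of the 19S cap, 3 cap chaperones, 4 core chaperones and 3 further activators or inhibitors.

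RNA was sequenced from U251, an established human glioblastoma cell line at passages 14 to 18, after poly(A) selection with a stranded kit. The 12 libraries form 4 groups of 3: cells with a stable short hairpin RNA against INCA1 (shINCA1) given interferon gamma (IFNγ) for 24 h, shINCA1 cells without IFNγ, cells with a stable control hairpin (shCTRL) given IFNγ for 24 h, and shCTRL cells without IFNγ. The labels name a single line for each hairpin, so an effect of the hairpin and a difference between lines cannot be told apart. Whether replicates were grown apart is not in the labels, and the spread behind each p-value may be technical.

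The 20S proteasome is a barrel of alpha and beta rings in which 3 kinds of beta subunit cut proteins into peptides. IFNγ is known to replace these constitutive subunits (PSMB5, PSMB6 and PSMB7) with the immune forms PSMB8, PSMB9 and PSMB10 and to add the PA28 cap made of PSME1 and PSME2, which changes the peptides supplied to MHC class I molecules. The 19S cap binds and unfolds ubiquitin-tagged proteins, and dedicated chaperones assemble core and cap.

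The promoters of the 5 immune genes, and of PSMB5 as the constitutive counterpart of PSMB8, are shown because interferon-activated factors bind short elements known from such promoters. Each line gives RefSeq sequence of GRCh38.p14 from 250 bases before to 50 bases after a gene's start, 5′ to 3′ on the gene's own strand. Capitals mark every match on either strand to the interferon-stimulated response element, searched as GAAANNGAAA, or to the gamma-activated site, searched as TTCNNNGAA. PSMB8 and PSMB5 each have 2 starts in the table, and the second is shown, since the first start of each holds no match.
PSMB8, chr6:32843998-32844297, minus strand: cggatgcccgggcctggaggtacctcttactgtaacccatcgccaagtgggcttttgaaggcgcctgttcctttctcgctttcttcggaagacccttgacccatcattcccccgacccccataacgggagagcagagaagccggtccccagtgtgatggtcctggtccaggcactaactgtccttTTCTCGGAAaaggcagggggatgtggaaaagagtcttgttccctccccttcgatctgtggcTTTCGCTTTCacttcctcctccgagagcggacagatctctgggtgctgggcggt
PSMB9, chr6:32853942-32854241, plus strand: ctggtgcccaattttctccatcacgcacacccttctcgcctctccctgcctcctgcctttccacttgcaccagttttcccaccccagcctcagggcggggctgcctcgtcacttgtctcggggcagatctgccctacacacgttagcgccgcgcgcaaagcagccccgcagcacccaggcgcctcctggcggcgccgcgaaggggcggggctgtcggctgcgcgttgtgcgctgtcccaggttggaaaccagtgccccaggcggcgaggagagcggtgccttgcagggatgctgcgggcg
PSMB10, chr16:67936801-67937100, minus strand: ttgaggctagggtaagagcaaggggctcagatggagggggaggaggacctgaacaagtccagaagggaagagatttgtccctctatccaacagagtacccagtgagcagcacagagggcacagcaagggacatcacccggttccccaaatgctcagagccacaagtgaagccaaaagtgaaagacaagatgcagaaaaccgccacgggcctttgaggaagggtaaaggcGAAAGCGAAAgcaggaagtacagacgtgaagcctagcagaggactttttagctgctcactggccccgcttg
PSME1, chr14:24135944-24136243, plus strand: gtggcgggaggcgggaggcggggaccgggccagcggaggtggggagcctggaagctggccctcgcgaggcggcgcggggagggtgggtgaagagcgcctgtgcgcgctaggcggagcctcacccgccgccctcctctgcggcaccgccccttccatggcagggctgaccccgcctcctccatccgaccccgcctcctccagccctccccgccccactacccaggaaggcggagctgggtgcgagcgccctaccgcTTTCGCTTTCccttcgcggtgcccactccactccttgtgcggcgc
PSME2, chr14:24146561-24146860, minus strand: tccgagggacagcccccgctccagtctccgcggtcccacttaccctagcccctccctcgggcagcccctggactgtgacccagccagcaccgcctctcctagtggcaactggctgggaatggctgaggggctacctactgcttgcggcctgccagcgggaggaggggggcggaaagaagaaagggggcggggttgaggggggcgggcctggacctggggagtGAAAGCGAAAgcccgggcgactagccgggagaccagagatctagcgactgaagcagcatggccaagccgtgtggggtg
PSMB5, chr14:23034851-23035150, minus strand: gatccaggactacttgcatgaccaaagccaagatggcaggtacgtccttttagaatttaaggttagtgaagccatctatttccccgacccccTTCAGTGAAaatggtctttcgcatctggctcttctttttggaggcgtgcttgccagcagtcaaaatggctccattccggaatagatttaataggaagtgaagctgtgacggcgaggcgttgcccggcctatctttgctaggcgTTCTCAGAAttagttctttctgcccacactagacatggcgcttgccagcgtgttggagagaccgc

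A promoter entry was found for 40 of the 46 genes (the others are PSMB1, PSMB6, PSMB7, PSMA7, PSMD4 and PSMG3). Counting a gene with a match at any of its starts, the response element matched in 4 of the 5 immune genes, PSMB8, PSMB10, PSME1 and PSME2, and in 2 of the other 35, PSMA4 and PSMB4. Of all 27167 genes with a promoter entry, 4.37% had a match at any start. Counted by start, it matched in 4 of 6 starts of immune genes and in 2 of 43 starts of the others, against 3.57% of 34943 promoters of the same length. All 4 immune matches had the same letters, GAAAGCGAAA, read on the strand opposite to the gene in PSMB8 and PSME1. The first base of the match lay 4, 21 and 28 bases before the start in PSMB8, PSMB10 and PSME2, and 5 bases after it in PSME1. That exact sequence, looked up after the 4 matches had been seen, was present in 35 of the promoters (0.10%), which belong to 34 genes. The gamma-activated site, found in 9.37% of genes and 7.66% of promoters, matched in PSMB8 and in 6 of the other 35 (PSMA2, PSMB5, PSMC4, PSMD2, PSMD3 and PSME3). PSMB9 had neither set of letters in this window. A match describes letters and does not show binding.

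Library totals were 46525032 to 66242859 estimated counts, and 15769 genes were tested. The smallest count of a member in a library was 17 for PSMB9 and 741 for any other member. Of the glioma line markers, VIM (1779 to 2631 CPM), CD44, SOX2, SOX9 and NES (26.9 to 142 CPM) were present, while GFAP, S100B and OLIG2 lay between 0.133 and 2.95 CPM. Lymphoid and myeloid cells also carry immune proteasomes. Of their markers CD14 was present in all 12 libraries (0.166 to 0.731 CPM), ITGAM was at 0 in 7 and at most 0.261 CPM, PTPRC was at 0 in 11, and CD3E, MS4A1, AIF1 and NKG7 were at 0 in all 12. The 8 genes of that list summed to 0.389 to 0.889 CPM in IFNγ shINCA1, 0.312 to 0.784 in untreated shINCA1, 0.216 to 0.752 in IFNγ shCTRL and 0.480 to 0.679 in untreated shCTRL libraries, with 6 of 8 at 0 in each group. Endothelial and epithelial markers (4 genes) summed to at most 1.15 CPM in any library. The part of such cells in the results was not tested. The RNA targeted by the hairpin was not matched by identifier or position, since the table holds symbols alone, so the hairpin labels were not checked against its level.

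The first question is what IFNγ did to the proteasome genes of each line. All 5 immune genes rose in both lines, by 2.48-fold to 51.8-fold in shINCA1 and by 2.49-fold to 65.5-fold in shCTRL cells. The 3 constitutive catalytic genes did not pass the test in either line, though PSMB6 and PSMB7 came near the threshold in shCTRL cells. Smaller rises, of at most 1.42-fold, were measured in 6 of 7 alpha ring genes, in the non-catalytic beta genes PSMB2 and PSMB4, in the chaperone POMP and in the inhibitor PSMF1. No member fell. Levels are CPM, estimated counts set to a common library size and scaled with TMM library factors, changes are log2 ± SE, and a call is an adjusted p of at most 0.05 in the edgeR quasi-likelihood test over all tested genes.

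In counts, 15 of 46 members rose and 0 fell with IFNγ in shINCA1 cells, against 6.13% raised and 2.95% lowered among all tested genes. In shCTRL cells 18 of 46 rose and 0 fell, against 9.72% raised and 7.51% lowered. At an unadjusted p under 0.05 edgeR also had 0 members lower in either line, and 0 were called lower by DESeq2 or limma-voom, which at that unadjusted p had 2 and 1 members lower in shINCA1 cells. All 15 raised in shINCA1 cells were also raised in shCTRL cells, and PSMB3, PSMD12 and PSMG2 passed the test in shCTRL cells alone, a difference between lines that was tested and not called. The median log2 change of the 46 members was 0.03 in shINCA1 and 0.07 in shCTRL cells, against 0 and -0.012 over all tested genes. The 5 immune genes together held 434 ± 8.94 CPM in IFNγ shINCA1 and 132 ± 6.21 CPM in untreated shINCA1 libraries. The same sum was 578 ± 2.68 CPM in IFNγ shCTRL and 163 ± 4.19 CPM in untreated shCTRL libraries (SD, n = 3 each). The other 41 summed to 10121 ± 108 CPM with IFNγ and 9685 ± 39.6 CPM without it in shINCA1 cells, and to 11039 ± 122 CPM with IFNγ and 10176 ± 83.4 CPM without it in shCTRL cells.

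PSMB9, the immune counterpart of PSMB6, was nearly silent without IFNγ and had the largest rise of the 46. It measured 24.7, 25.4 and 24.1 CPM in IFNγ shINCA1 libraries, against 0.610, 0.283 and 0.534 CPM in untreated ones, a change of 5.69 ± 0.17 (adjusted p = 3.33e-10). In shCTRL cells it measured 44.9, 45.5 and 44.5 CPM with IFNγ, against 0.862, 0.594 and 0.576 CPM without it, a change of 6.03 ± 0.17 (adjusted p = 1.25e-10). The untreated values rest on 17 to 52 estimated counts a library, the lowest of any member, and their SE is the largest of the 5.

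PSMB8, the immune chymotrypsin-like subunit, also separated treated from untreated libraries completely. Its level was 68.5, 67.6 and 66.6 CPM in IFNγ shINCA1 libraries, against 12.9, 13.7 and 14.1 CPM in untreated ones (2.32 ± 0.04, adjusted p = 3.78e-12). In shCTRL cells it was 109.5, 111 and 113 CPM with IFNγ, against 17.0, 17.7 and 16.2 CPM without it (2.71 ± 0.04, adjusted p = 8.66e-13). The overlapping antisense gene PSMB8-AS1 averaged 22.8 CPM in IFNγ shINCA1 and 0.391 CPM in untreated shINCA1 cells, and 23.3 CPM in IFNγ shCTRL and 0.661 CPM in untreated shCTRL cells. The strand setting of the authors' counting is unknown here, so reads of PSMB8 and its antisense partner may not be told apart.

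PSMB10, the immune trypsin-like subunit, started from a higher level than the other immune catalytic genes. It measured 93.2, 91.1 and 87.4 CPM in IFNγ shINCA1 libraries, against 27.5, 23.2 and 27.3 CPM in untreated ones (1.80 ± 0.07, adjusted p = 8.26e-09). In shCTRL cells it measured 99.4, 101 and 101 CPM with IFNγ, against 28.1, 23.5 and 27.7 CPM without it (1.93 ± 0.08, adjusted p = 3.36e-09). Treated and untreated libraries did not overlap in either line.

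The PA28 genes rose together. PSME1 measured 119, 109 and 119 CPM in IFNγ shINCA1 libraries, against 44.4, 47.0 and 49.0 CPM in untreated ones, and 143, 141 and 141 CPM in IFNγ shCTRL libraries, against 57.1, 57.4 and 55.7 CPM in untreated ones. PSME2 measured 139, 135 and 134 CPM in IFNγ shINCA1 libraries, against 42.9, 43.9 and 48.1 CPM in untreated ones, and 185, 178 and 177 CPM in IFNγ shCTRL libraries, against 63.4, 59.1 and 63.9 CPM in untreated ones. The changes of PSME1 were 1.31 ± 0.04 in shINCA1 and 1.32 ± 0.04 in shCTRL cells (adjusted p = 7.64e-10 and 5.64e-10). Those of PSME2 were 1.59 ± 0.05 in shINCA1 and 1.53 ± 0.05 in shCTRL cells (adjusted p = 2.77e-10 and 2.76e-10). PSME2 has 6 annotated pseudogenes, none with a row in the table, so reads shared with such copies make its level uncertain. PSME3, which forms the nuclear PA28 gamma cap, averaged 402 ± 4.70 CPM with IFNγ and 396 ± 15.2 CPM without it in shINCA1 cells, and 379 ± 12.8 and 362 ± 11.7 CPM in shCTRL cells (adjusted p = 0.799 and 0.244).

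**Figure D1:**
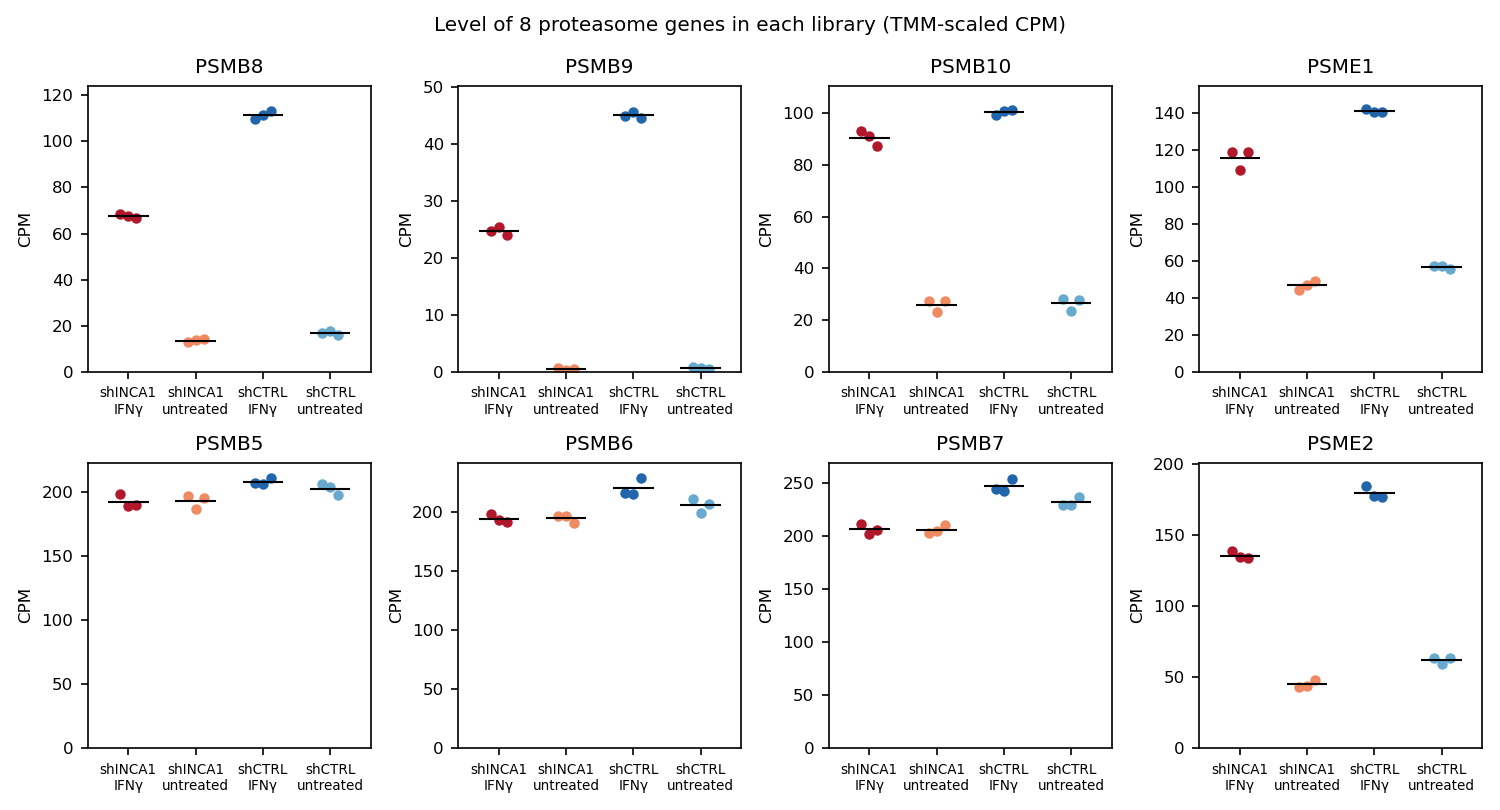
TMM-scaled CPM of 8 proteasome genes in each of the 12 libraries, with points for libraries, a line for the mean of 3, and all axes starting at 0. The 5 immune genes are higher in every IFNγ library than in any untreated one, and PSMB8, PSMB9, PSME1 and PSME2 are lower in IFNγ shINCA1 than in IFNγ shCTRL libraries, while PSMB5, PSMB6 and PSMB7 stay between 187 and 254 CPM. PSMB10 is also lower in IFNγ shINCA1 libraries, by a difference that missed the threshold.

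The constitutive catalytic genes gave values near each other with and without IFNγ. PSMB5, the constitutive chymotrypsin-like subunit, measured 198, 189 and 190.0 CPM in IFNγ shINCA1 libraries, against 197, 187 and 195 CPM in untreated ones (adjusted p = 0.971). In shCTRL cells it measured 207, 206 and 211 CPM with IFNγ, against 206, 204 and 198 CPM without it (0.04 ± 0.03, adjusted p = 0.462). PSMB6 averaged 194 ± 3.48 CPM with and 195 ± 3.52 CPM without IFNγ in shINCA1 cells, and 220.2 ± 7.39 CPM with and 206 ± 6.19 CPM without it in shCTRL cells. PSMB7 averaged 207 ± 4.75 CPM with and 206 ± 3.91 CPM without IFNγ in shINCA1 cells, and 247 ± 6.15 CPM with and 232 ± 4.29 CPM without it in shCTRL cells. In shCTRL the libraries of PSMB6 and PSMB7 did not overlap, and both changes missed the threshold (0.10 ± 0.03, adjusted p = 0.0606, and 0.09 ± 0.03, adjusted p = 0.0551). These 2 depend on the processing, since PSMB6 passed the test in 3 and PSMB7 in 4 of 21 alternatives, the DESeq2 Wald test among them (lowest adjusted p = 0.0304 and 0.0298).

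Set against its counterpart and divided by transcript length (GENCODE 44 canonical transcripts), the immune form was the smaller share at every catalytic position in all 12 libraries. PSMB8 made up 24.6% ± 0.318 of PSMB8 plus PSMB5 in IFNγ shINCA1 cells and 6.12% ± 0.344 in untreated ones, and 33.2% ± 0.250 in IFNγ shCTRL cells and 7.21% ± 0.227 in untreated ones (SD, n = 3 each). PSMB9 made up 9.35% ± 0.230 of PSMB9 plus PSMB6 in IFNγ shINCA1 cells and 0.198% ± 0.0714 in untreated ones, and 14.2% ± 0.519 in IFNγ shCTRL cells and 0.265% ± 0.0560 in untreated ones. PSMB10 made up 30.6% ± 0.635 of PSMB10 plus PSMB7 in IFNγ shINCA1 cells and 11.3% ± 0.928 in untreated ones, and 29.1% ± 0.434 in IFNγ shCTRL cells and 10.3% ± 0.849 in untreated ones. With IFNγ the shares of PSMB8 and PSMB9 were thus lower in every shINCA1 than in every shCTRL library, while that of PSMB10 was higher in every shINCA1 library. PSMB10 itself was not higher there. Between the lines with IFNγ it gave -0.15 and its counterpart PSMB7 -0.26 (edgeR adjusted p = 0.0903 and 9.55e-06). The ratio of PSME2 to PSME3 per length was 1.35 ± 0.0352 in IFNγ shINCA1 and 0.457 ± 0.0413 in untreated shINCA1 cells, and 1.90 ± 0.0191 in IFNγ shCTRL and 0.689 ± 0.0274 in untreated shCTRL cells. These shares and ratios were not tested, they depend on 1 transcript length per gene, and they describe transcripts and not subunits in assembled proteasomes.

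**Figure D2:**
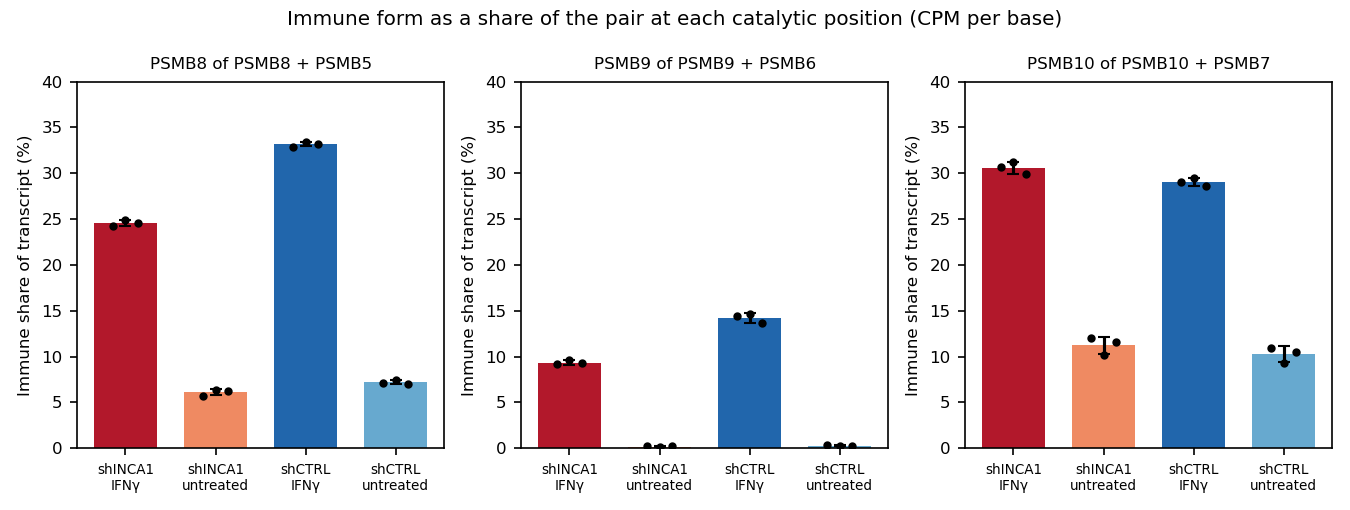
Share of the immune form in the transcripts of each immune and constitutive pair, in percent of CPM per base, with bars for the mean of 3 libraries, error bars for the SD and points for libraries. At each position the IFNγ groups stand above the untreated ones, and PSMB8 reached 24.6% in IFNγ shINCA1 against 33.2% in IFNγ shCTRL cells.

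The alpha ring, which forms the outer rings and the gate of the core, had 6 of 7 genes raised in shINCA1 and the same 6 in shCTRL cells, all by less than the immune genes. PSMA3 measured 232, 218 and 233 CPM in IFNγ shINCA1 libraries, against 177, 184 and 185 CPM in untreated ones (0.32 ± 0.04, adjusted p = 6.97e-05). In shCTRL cells PSMA3 measured 172, 178 and 181 CPM with IFNγ, against 121, 124 and 128 CPM without it (0.51 ± 0.04, adjusted p = 6.64e-07). PSMA5, PSMA6, PSMA2, PSMA4 and PSMA1 changed by 0.34, 0.29, 0.25, 0.14 and 0.15 in shINCA1 cells and by 0.48, 0.43, 0.40, 0.38 and 0.16 in shCTRL cells. PSMA7 did not pass the test, with means of 572 ± 16.1 CPM with and 569 ± 21.2 CPM without IFNγ in shINCA1 cells (adjusted p = 0.957), and 524 ± 15.0 CPM with and 497 ± 12.2 CPM without it in shCTRL cells (adjusted p = 0.167).

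Of the non-catalytic beta genes, PSMB2 rose most. It measured 355, 351 and 359 CPM in IFNγ shINCA1 libraries, against 290.4, 293 and 296 CPM in untreated ones (0.28 ± 0.02, adjusted p = 4.41e-06). In shCTRL cells it measured 402, 402 and 415 CPM with IFNγ, against 319.9, 328 and 330.3 CPM without it (0.32 ± 0.02, adjusted p = 6.64e-07). PSMB4 rose by 0.10 ± 0.03 in shINCA1 and 0.16 ± 0.03 in shCTRL cells (adjusted p = 0.0387 and 0.000757). PSMB3 rose in shCTRL cells by 0.23 ± 0.03 (adjusted p = 0.000301), and its change of 0.11 ± 0.03 in shINCA1 cells missed the threshold (adjusted p = 0.0607). PSMB1 did not pass the test in either line.

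POMP, the chaperone that matures the core, measured 170.1, 166 and 166 CPM in IFNγ shINCA1 libraries, against 148, 155 and 148 CPM in untreated ones (0.15 ± 0.04, adjusted p = 0.0267). In shCTRL cells POMP measured 189.5, 180.0 and 179 CPM with IFNγ, against 146, 154 and 161 CPM without it (0.25 ± 0.04, adjusted p = 0.000624). PSMF1, which inhibits the core in vitro, rose by 0.13 ± 0.03 in shINCA1 and 0.21 ± 0.03 in shCTRL cells (adjusted p = 0.0200 and 0.000546). PSMG2, a partner in alpha ring assembly, rose in shCTRL cells by 0.19 ± 0.04 (adjusted p = 0.00265) and gave 0.08 ± 0.04 in shINCA1 cells (adjusted p = 0.249). The other core chaperones PSMG1 and PSMG3 and the activator PSME4, which forms the PA200 cap, did not pass the test in either line.

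Of the 17 subunits of the 19S cap 0 were called by edgeR in shINCA1 cells, where 2 were higher at an unadjusted p under 0.05 and 0 were called by DESeq2 or limma-voom. The lid gene PSMD12 was the 1 of the 17 raised in shCTRL cells, by 0.13 ± 0.03 (adjusted p = 0.00742). Summed over the 17, the level was 4608 ± 24.1 CPM with IFNγ and 4569 ± 28.5 CPM without it in shINCA1 cells, and 5188 ± 61.9 CPM with IFNγ and 5017 ± 31.9 CPM without it in shCTRL cells. The 3 cap chaperones (PSMD5, PSMD9 and PSMD10) were not called in either line by any of these tools, and 0 had an unadjusted p under 0.05.

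**Figure D3:**
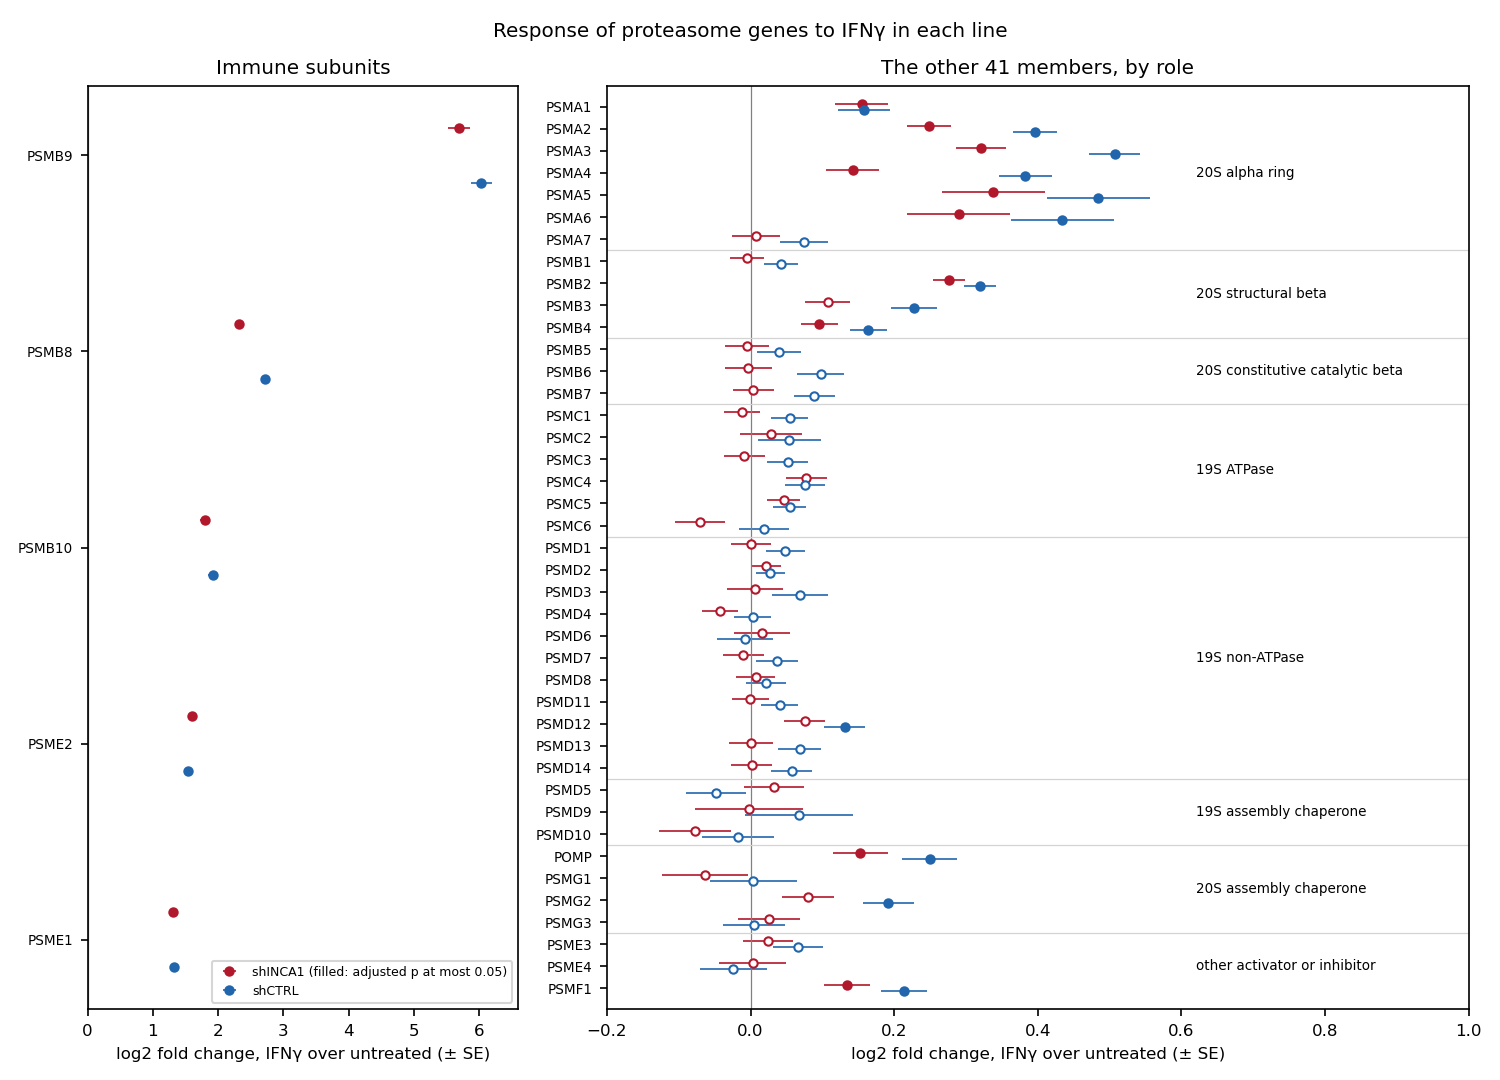
Log2 change with IFNγ of each of the 46 genes, with shINCA1 above shCTRL in each row, bars for the SE and filled points for an adjusted p of at most 0.05. The left panel, for the 5 immune genes, reaches 6.03, while the other 41 stay between -0.08 and 0.51. The filled points among the 41 lie mostly in the alpha ring and the non-catalytic beta genes, and the rest are POMP, PSMF1, PSMG2 and PSMD12.

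Some of the smaller rises depend on single libraries or on the processing. In shINCA1 cells leaving out 1 library ended the call of PSMB4 (10 of 12 libraries), PSMA4 (6), POMP (6), PSMA6 (5), PSMA1 (4) and PSMF1 (4), with adjusted p between 0.0509 and 0.182, and without the first IFNγ shINCA1 library 9 of the 15 calls were made. Other settings at the threshold of 0.05 also ended calls in shINCA1 cells, 6 of them for PSMA4 and for PSMB4, 4 for POMP, 3 for PSMA1 and 2 for PSMF1 (adjusted p up to 0.168). Upper-quartile factors were among the settings for each of these 5. A threshold of 0.01 ended the calls of the same 5 and of PSMA6 as well. In shCTRL cells PSMA1 and PSMD12 each lost the call on leaving out any of 3 libraries (adjusted p between 0.0506 and 0.0759) and with upper-quartile factors. PSMA1 also lost it there at a threshold of 0.01. The rises of PSMB2, PSMA2 and PSMA3 kept the call in both lines in all 21 alternatives. That of PSMA5 kept it in shCTRL cells, and in shINCA1 cells lost it only at a threshold of 0.01 (adjusted p = 0.0103). The 5 immune genes kept the call in both lines under every alternative run.

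The second question is how the hairpin lines differed. The immune genes were at or below the shCTRL level in shINCA1 cells, and with IFNγ PSMB8, PSMB9, PSME1 and PSME2 passed the test while PSMB10 missed it in a result that depends on the processing. Most non-catalytic beta genes and 19S genes were also lower in shINCA1 cells, while alpha ring genes were mostly higher without IFNγ. The chromosomal neighbours of these higher alpha ring genes were higher too. With the neighbours' median subtracted, PSMA3 and PSMA4 gave 0.090 and 0.0030 without IFNγ, and PSMA2, PSMA6 and PSMA7 gave -0.057, -0.092 and -0.21. Over the whole table more than 1 gene in 4 differed in each direction, so a difference between the lines was common among all genes.

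With IFNγ, 7 of 46 members were higher and 29 lower in shINCA1 than in shCTRL cells, against 28.7% and 30.2% of all tested genes. Without IFNγ, 11 were higher and 21 lower, against 27.4% and 29.5%. In both states the share of lower members was over its background. The share of higher members was under its background with IFNγ and near it without IFNγ. The median log2 difference of the members was -0.14 with and -0.07 without IFNγ, against -0.0012 and -0.011 over all tested genes. Of the lowered members 20 were lowered in both states and of the raised members 7 were raised in both.

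PSMB8 was lower in shINCA1 than in shCTRL cells by -0.72 ± 0.04 with IFNγ (adjusted p = 2.28e-08) and by -0.32 ± 0.04 without it (adjusted p = 4.25e-05), and its libraries did not overlap in either state. PSMB9 was lower by -0.86 ± 0.12 with IFNγ (adjusted p = 6.19e-05), while its libraries overlapped without IFNγ (-0.52 ± 0.23, adjusted p = 0.0676). PSMB10 gave -0.15 ± 0.07 with IFNγ (adjusted p = 0.0903, and down to 0.00460 in the 5 of 21 alternatives in which it passed) and -0.03 ± 0.07 without it (adjusted p = 0.798). PSME1 was lower by -0.29 ± 0.04 with and -0.28 ± 0.04 without IFNγ (adjusted p = 8.55e-05 and 0.000133), and PSME2 by -0.40 ± 0.04 and -0.47 ± 0.05 (adjusted p = 8.96e-06 and 3.13e-06). In bulk libraries fewer cells that respond and less RNA per cell cannot be told apart.

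Outside the immune genes the largest differences among lowered members, in both states, were in the 19S lid gene PSMD6, the cap chaperone PSMD5, the beta gene PSMB1 and the cap base gene PSMD1. PSMD6 measured 72.4, 72.7 and 71.9 CPM in untreated shINCA1 libraries, against 130.0, 135 and 133 CPM in untreated shCTRL ones (-0.88 ± 0.04, adjusted p = 3.51e-09). PSMB1 measured 244, 251 and 249.7 CPM in untreated shINCA1 libraries, against 375, 379 and 379 CPM in untreated shCTRL ones (-0.61 ± 0.02, adjusted p = 1.26e-09). With IFNγ the differences of PSMD6, PSMD5, PSMB1, PSMD1 and PSMD8 were -0.85, -0.58, -0.65, -0.56 and -0.42, and without it they were -0.88, -0.66, -0.61, -0.51 and -0.41. PSMD8 is a lid subunit.

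Higher in shINCA1 cells were the alpha ring gene PSMA3, the ATPase gene PSMC6 and the core chaperone PSMG3. PSMC6 measured 147, 147 and 143 CPM in untreated shINCA1 libraries, against 96.1, 103 and 104 CPM in untreated shCTRL ones (0.53 ± 0.03, adjusted p = 1.03e-07). PSMG3 measured 89.2, 87.0 and 90.0 CPM in untreated shINCA1 libraries, against 69.7, 67.7 and 61.6 CPM in untreated shCTRL ones (0.42 ± 0.04, adjusted p = 4.66e-06). PSMA3 was higher by 0.36 ± 0.04 with and 0.55 ± 0.04 without IFNγ (adjusted p = 3.01e-06 and 8.63e-08). The ATPase gene PSMC1, the lid gene PSMD7 and the alpha ring gene PSMA7 were also higher in both states, PSMC1 by 0.18 and 0.25, PSMD7 by 0.22 and 0.27 and PSMA7 by 0.13 and 0.19 with and without IFNγ. These 3 turned below 0 in both states once the median of chromosomal neighbours was subtracted, to -0.31 and -0.24 for PSMC1, -0.25 and -0.24 for PSMD7 and -0.26 and -0.21 for PSMA7. The same subtraction left PSMA3 at -0.11 with and 0.090 without IFNγ, PSMC6 at 0.035 and 0.14, and PSMG3 at 0.065 and 0.0073.

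By role, 2 of 7 alpha ring genes were higher and 2 lower with IFNγ, and 5 were higher and 1 lower without it. Of the 4 non-catalytic beta genes 4 were lower with and 3 without IFNγ. Of the 3 constitutive catalytic genes all 3 were lower with IFNγ and 1, PSMB7, without it. Of the 17 cap subunits 3 were higher and 12 lower with IFNγ, and 3 higher and 10 lower without it. Of the 3 cap chaperones PSMD5 and PSMD9 were lower in both states. Of the 4 core chaperones PSMG3 was higher in both, and POMP and PSMG2 were lower with IFNγ. PSME3 was higher by 0.09 ± 0.03 with IFNγ (adjusted p = 0.0494), a call lost on leaving out any of 7 single libraries (adjusted p up to 0.150), and by 0.13 ± 0.03 without IFNγ (adjusted p = 0.00735). With IFNγ the calls of PSMD12, PSMA5, POMP and PSMA1 were lost on leaving out any of 6, 3, 1 and 1 libraries (adjusted p up to 0.117). Without IFNγ those of PSMF1 and PSME4 were lost on leaving out any of 4 and of 3 (adjusted p up to 0.0690 and 0.0823).

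Differences between the lines moved with those of neighbouring genes. For each member the median difference of the 20 nearest tested genes on each side (fewer near a chromosome end, as for PSMB1 with 22 in all), none of them a listed gene, was taken in the RefSeq order. Unlisted genes were kept whether or not they respond to IFNγ, so subtracting the median may also take away a difference in response that they share. Without IFNγ the neighbours of PSMB1 on chromosome 6 had a median of -0.75, those of PSMB9 and PSMB8 on the same chromosome -0.62 and -0.59, and those of PSMD6 on chromosome 3 -0.58. The neighbours of PSMC1, PSMA3, PSMC6 and PSMA6 on chromosome 14 had medians of 0.49, 0.46, 0.39 and 0.39, and those of PSMG3 on chromosome 7 had 0.41. With IFNγ the neighbours of PSMB9 and PSMB8 had medians of -0.66 and -0.62. The median had the sign of the member for 7 of 7 higher and 21 of 29 lower members with IFNγ, and for 11 of 11 and 17 of 21 without it. After its subtraction 2 of 7 higher and 26 of 29 lower members kept their sign with IFNγ, and 5 of 11 and 18 of 21 without it.

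After the neighbours' median was subtracted, the SD over the 41 other members was 0.162 with IFNγ, against 0.270 before, and 0.160 without it, against 0.297 before. Pearson's r between member and neighbour median was 0.856 with and 0.829 without IFNγ over the 46 members, some of which share neighbours and all of which share libraries, so it is a description. With IFNγ the difference of PSMB8 became -0.10, that of PSMB9 -0.20, that of PSME1 -0.18 and that of PSME2 -0.31. That of PSMB10, whose neighbours had a median of 0.23, became larger, at -0.38 with IFNγ and -0.26 without it. Without IFNγ PSMB8 turned to 0.26 and PSMB9 to 0.10, and PSMB1 turned to 0.16 with and 0.15 without IFNγ. PSMD5 kept -0.52 with and -0.59 without IFNγ. What links the members to their neighbours was not tested.

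**Figure D4:**
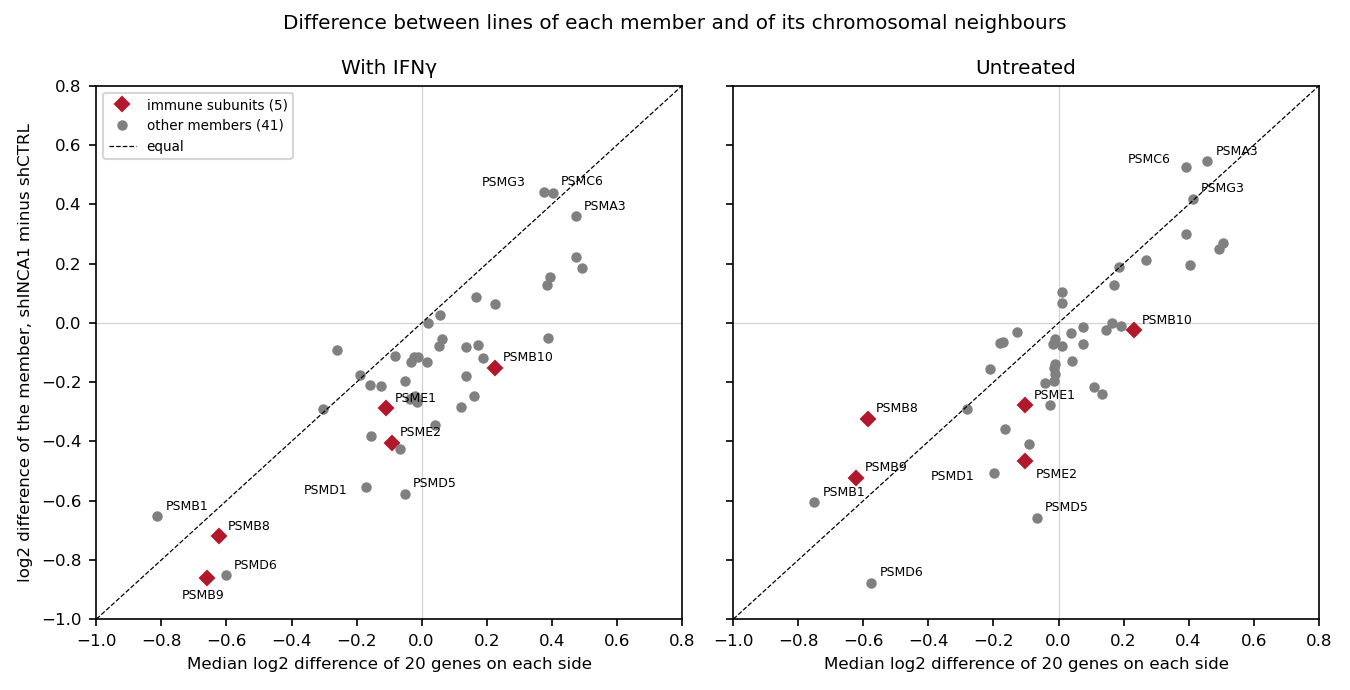
Log2 difference of each of the 46 genes (shINCA1 minus shCTRL) against the median difference of the 20 tested genes on each side, with and without IFNγ, where the dashed line marks equal values. The points run from lower left to upper right with most of them below the line, PSMB8 and PSMB9 lie at the lower left (below the line with IFNγ, above it without IFNγ), and PSMD5, PSMD1 and PSME2 lie below it in both panels.

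The third question is whether the lines responded differently to IFNγ. The response of PSMB8 was smaller in shINCA1 cells, 4.99-fold against 6.56-fold in shCTRL cells, and that of PSMA4 was smaller too. No other member passed the test of the difference of responses. In all, 0 members had a larger and 2 a smaller response in shINCA1 cells, against 0.615% and 1.1% of all tested genes. At an unadjusted p under 0.05 edgeR had 0 larger and 7 smaller responses, and DESeq2 and limma-voom called 0 larger.

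For PSMB8 the difference of responses was -0.40 ± 0.06 (adjusted p = 0.00461), and it kept its call in all 20 alternatives run. PSMA4 measured 320.3, 299 and 317 CPM in IFNγ shINCA1 libraries, against 275, 285 and 288 CPM in untreated ones, and 328, 324 and 317 CPM in IFNγ shCTRL libraries, against 236, 258 and 249.5 CPM in untreated ones. Its difference of responses was -0.24 ± 0.05 (adjusted p = 0.0416), and the call was lost without any of 11 of the 12 libraries (adjusted p between 0.0538 and 0.137). The difference was -0.34 ± 0.26 for PSMB9 (adjusted p = 0.712), -0.13 ± 0.10 for PSMB10 (adjusted p = 0.739) and 0.06 ± 0.06 for PSME2 (adjusted p = 0.816). For PSME1 it was -0.0099 ± 0.06 (adjusted p = 0.987). Of the 46 differences 40 were below 0, with a median of -0.06, against 0.0076 over all tested genes.

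Genes known to control proteasome genes were measured beside them. Of 6 listed interferon factors that act on the immune genes 5 were tested, and all 5 rose in both lines and were lower in shINCA1 cells in both states. Of all tested genes 6.13% rose with IFNγ in shINCA1 and 9.72% in shCTRL cells. Between the lines 30.2% of all tested genes were lower in shINCA1 cells with IFNγ and 29.5% without it. IRF1, which binds response elements, rose by 5.75 ± 0.06 in shINCA1 and 5.96 ± 0.06 in shCTRL cells and was lower in shINCA1 by -0.58 ± 0.05 with and -0.36 ± 0.05 without IFNγ. NLRC5, an activator of MHC class I genes, was the only one of the 5 with a difference of responses, 0.97 ± 0.12 (adjusted p = 0.00144), opposite in sign to that of PSMB8. Its level was lower in shINCA1 than in shCTRL cells in both states, and further below it without IFNγ. A larger response in shINCA1 cells was called for 0.615% of all tested genes.

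The factor NRF1 raises constitutive proteasome genes when proteasomes fail. It was listed with other genes, 9 in all, and not all of these act in the NRF1 pathway. With IFNγ 1 of the 9 rose in shINCA1 (BACH1, 0.31 ± 0.08) and 3 in shCTRL cells (BACH1, NFE2L2 and DDI2, by 0.40, 0.15 and 0.22), and 0 fell. Of all tested genes 6.13% rose and 2.95% fell with IFNγ in shINCA1 cells, and 9.72% rose and 7.51% fell in shCTRL cells. NFE2L1, which encodes NRF1 itself, gave 0.02 ± 0.02 in each line. Between the lines 1 of the 9 was higher and 4 lower with IFNγ and 2 higher and 4 lower without it, among them MAFK at 1.04 and 0.87 and NFE2L2 at -0.62 and -0.59. Between the lines the shares of all tested genes were 28.7% higher and 30.2% lower with IFNγ and 27.4% and 29.5% without it.

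Of 26 other proteasome-associated genes listed 21 were tested. With IFNγ 2 rose and 1 fell in shINCA1 cells, against 6.13% raised and 2.95% lowered among all tested genes. In shCTRL cells 4 rose and 2 fell, against 9.72% and 7.51%. PSMG4, a partner of PSMG3 in core assembly, rose by 0.48 ± 0.10 in shINCA1 and 0.40 ± 0.10 in shCTRL cells, and KIAA0368, which codes for a proteasome adaptor and scaffold protein, by 0.17 ± 0.04 in shINCA1 and 0.19 ± 0.04 in shCTRL cells. ZFAND5, a proteasome activator, fell by 0.21 on the log2 scale in shINCA1 and by 0.30 in shCTRL cells. AKIRIN2, which mediates nuclear import of proteasomes, rose in shCTRL cells by 0.40 ± 0.05 (adjusted p = 0.000224) and gave 0.12 ± 0.05 in shINCA1 cells (adjusted p = 0.255). Between the lines 0 of the 21 were higher and 14 lower with IFNγ, against 28.7% and 30.2% of all tested genes. Without IFNγ 1 was higher and 14 were lower, against 27.4% and 29.5%. Of the 21, 0 passed the test of the difference of responses.

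In position, PSMB8 and PSMB9 lie on chromosome 6 with 1 protein-coding gene, TAP1, between them, and PSME1 and PSME2 on chromosome 14 with 1 protein-coding gene between them in the RefSeq order. PSMB10 lies on chromosome 16, and the constitutive counterparts PSMB5, PSMB6 and PSMB7 on chromosomes 14, 17 and 9. Of the 46 members 22 have annotated pseudogenes and 19 overlap another annotated gene, so levels of such genes may include reads that the authors' counting could not assign. PSMC1 has 13 pseudogenes, PSMA6 and PSMD7 have 4 each, and none of these has a row in the table.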

How the data were processed

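The authors deposited 1 table of expected counts (estimated counts for each gene symbol, in whole numbers and unscaled). FastQC, Trimmomatic, HISAT2, StringTie and the build hg19 are named per the submitters' processing notes, without versions, annotation or counting step. Low counts pile up at multiples of 3 (3 occurs 5790 times and 6 occurs 4120 times, against 2186 times for 2 and 1317 for 4), so 1 fragment may be worth about 3 units, and such counts may carry more error than their size shows.

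All columns were mapped to samples by title. The whole table was fitted in R 4.3.3 with edgeR 4.0.16: filterByExpr with the 4 groups, which kept 15769 genes and 99.986% of the counts, then TMM factors, glmQLFit and glmQLFTest on all 12 samples with a coefficient for each group. The common BCV (biological coefficient of variation) came to 10.6%. P-values are two-sided and Benjamini-Hochberg adjusted over all tested genes, and an SE is the log2 change over the square root of F. The fit was tested on simulated counts. Alternatives were DESeq2 1.42.0 size factors and Wald test, upper-quartile factors, limma 3.58.1 voom, other filters, a threshold of 0.01, a fit to the compared groups alone, the replicate number as a block, each library left out, and, between lines, the neighbours' median subtracted.

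The members and lists were chosen with earlier results of these data known. Named in every comparison are the 5 immune genes, PSMB5, PSMB6, PSMB7, PSME3, PSME4, PSMF1 and POMP, up to 6 further members raised and 6 lowered by smallest p, and up to 4 genes of each other list. The values of some listed genes are not reported here. Other members are named to account for the counts by role. Gene order and promoters come from RefSeq tables of GRCh38.p14, and no hg19 coordinate was converted.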

Additional observations from a re-analysis of the deposited data

Results flagged for a closer look

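PSMB8 stood out because its response to IFNγ differed between the lines in the test of the difference itself, at -0.40 on the log2 scale (shINCA1 minus shCTRL). The range of this difference was -0.42 to -0.36 over the 20 alternatives run.

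PSMA4 stood out for the same reason, at -0.24 (shINCA1 minus shCTRL). The difference was below 0 in all 20 alternatives, while the call depended on nearly every library.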

How the results depend on the processing

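The IFNγ rises of the 5 immune genes and the smaller response of PSMB8 in shINCA1 cells kept direction and call in every alternative run. The count raised by IFNγ in shINCA1 cells was 8 at a threshold of 0.01, against 15, and 9 to 15 with a library left out. In every alternative that kept the threshold of 0.05 the same 9 members were called. The counts with a library left out were 16 to 19 for IFNγ in shCTRL, 33 to 37 and 30 to 34 between the lines with and without IFNγ, and 1 to 2 for the difference of responses. That last count, 2, was 1 at a threshold of 0.01 or with upper-quartile factors and 4 in the DESeq2 Wald test. With the neighbours' median subtracted, differences between lines reversed sign. With IFNγ PSME3 became -0.080, PSMA3 -0.11, PSMD7 -0.25, PSMC1 -0.31, PSMA7 -0.26, PSMB1 0.16, PSMC4 0.012 and PSMG2 0.013. Without IFNγ PSMB8 became 0.26, PSME3 -0.044, PSMC1 -0.24, PSMD7 -0.24, PSMA2 -0.057, PSMA6 -0.092, PSMA7 -0.21, PSMD14 0.056 and PSMB1 0.15. Upper-quartile factors gave 815 genes raised and 733 lowered by IFNγ in shINCA1 (967 and 465 with TMM) and 1201 and 1970 in shCTRL cells (1532 and 1184), and moved the median of all genes by less than 0.1.

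The replicate numbers gave no sign of pairing the samples over all tested genes: deviations of same-numbered samples correlated at -0.0358 to 0.0464 over 12 pairs. Such a correlation cannot exclude a pairing that touches few genes. With the replicate number as a block the counts of members called were 13, 19, 39 and 32 in the order above and 1 for the difference of responses. In the 4 comparisons 2, 2, 1 and 2 of 6 samples correlated best with their own number. The limma fits planned for a table without counts were not needed. Intervals of low counts may be too narrow if 1 fragment stands for several units, which would touch PSMB9 without IFNγ. This was not tested.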
